A study of Mus musculus with 6 samples.

Results

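The genes that encode the proteins of the cytoplasmic ribosome were examined in bulk RNA-Seq of the mouse cardiac outflow tract (OFT), the vessel that leaves the embryonic heart and is divided into aorta and pulmonary artery. They were picked by a rule on names, and the group was chosen with earlier results of these data known. The rule required an annotated protein-coding gene with more than 5 reads over all libraries. The symbol had to be Rps or Rpl with a number, Rplp0, Rplp1, Rplp2 or Rpsa. Such a symbol was carried by 84 of the 28777 genes counted, and 3 of these (Rps4l, Rpl6l and Rpl32l) are typed as pseudogenes in the annotation and were left out. The remaining 81 genes, 31 of the small and 50 of the large subunit, all stayed above the filter on low counts that was applied to every gene.

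The study asked which genes are altered in the OFT of compound mutant embryos that go on to form malformed semilunar valves. OFTs were taken at E13.5, in mid-gestation, on a C57/BL6J background, from Notch1+/-; Nos3-/- embryos (1 functional copy of the receptor Notch1 and none of the endothelial nitric oxide synthase Nos3) and from wildtype littermates. Both alleles are knockouts present in the whole embryo. There were 3 libraries labelled mutant and 3 labelled wildtype, each made from 3 pooled OFTs, so that a value is a mean over a pool, and the RNA came from whole dissected tissue with muscle, mesenchyme, endothelium and blood in it. In such bulk samples fewer cells of a type and less RNA per cell cannot be told apart.

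Between 34729103 and 44387490 reads were counted per library. Levels are given as CPM, the reads of a gene relative to the total of its library, after TMM scaling, a scaling that sets the bulk of the genes equal between libraries, and differences as log2 fold changes of the mutant label minus the wildtype label. Notch1 was at 74.3, 88.2 and 83.6 CPM in the libraries labelled wildtype and at 155, 161 and 139 CPM in those labelled mutant (log2 fold change 0.89 ± 0.10 (SE), adjusted p = 0.0313, edgeR). The adjusted p of Notch1 in edgeR was 0.00626 without wildtype replicate 1 and between 0.0917 and 0.337 without any other library. The label says 1 copy of this gene was lost, so the groups are called by their labels throughout. Nos3 was at 31.8, 47.2 and 48.1 CPM against 22.1, 22.0 and 20.4 CPM, with separate groups (log2 fold change -0.98), a difference that did not pass the threshold in edgeR (adjusted p = 0.128) but did in DESeq2 (adjusted p = 9.42e-06) and, without wildtype replicate 1, in edgeR (adjusted p = 0.00176). The titles and the descriptions give wildtype replicates 2 and 3 opposite library numbers. Replicates here follow the titles. Wildtype replicate 1 stood apart from the other libraries of its label for most ribosomal protein genes, and the counts of called genes are given with and without it.

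Each cytoplasmic ribosome holds 1 copy of nearly every ribosomal protein, arranged on ribosomal RNA in a small subunit that reads the mRNA and a large subunit that joins the amino acids. Cells make these proteins in matched amounts, and their mRNAs are among the most abundant of a growing cell. Most of them start with a run of pyrimidines (C or U) at the cap, the terminal oligopyrimidine or TOP motif, through which the growth pathway of mTOR and the RNA-binding protein Larp1 set their translation and stability. Loss of 1 copy of some of these genes causes Diamond-Blackfan anemia, in which red cells fail to form and heart defects can occur. Free Rpl5 and Rpl11 bind Mdm2 and so stabilize p53.

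Runs of C and T near the annotated starts of these genes can be read in the genome. Promoter entries (250 bases before and 50 from each annotated start, RefSeq, GRCm38.p6, the mm10 assembly) were given for 61 of the 81 genes, and 20 were not analysed here. The first 6 windows below belong to genes with the smallest p-values or highest levels among those with an entry, and the others to genes whose products are central to Diamond-Blackfan anemia, p53 or growth signalling. Each shows 30 bases of the gene's own strand, with the longest run of C and T within 50 bases of the start in capitals.
Rps25, chr9:44407684-44407713, plus strand: ccaccgggCTTCCTTTTTTTCCgacatctt
Rpl36a, chrX:134585672-134585701, plus strand: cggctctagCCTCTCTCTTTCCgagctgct
Rplp2, chr7:141447636-141447665, plus strand: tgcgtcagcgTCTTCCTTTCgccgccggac
Rps27l, chr9:66946053-66946082, plus strand: ccccgcctccaCTCCTCTCCactcctcccc
Rpl41, chr10:128549119-128549148, minus strand: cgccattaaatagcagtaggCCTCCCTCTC
Rps15, chr10:80292446-80292475, plus strand: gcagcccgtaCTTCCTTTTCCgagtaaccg
Rpl11, chr4:136053358-136053387, minus strand: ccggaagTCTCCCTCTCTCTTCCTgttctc
Rpl5, chr5:107900497-107900526, plus strand: gcctacagccaCTCTTTCTCacgtcgcttg
Rps19, chr7:24884626-24884655, plus strand: cgtcgTTCCCTTTCCCCTggctggcagcgc
Rps6, chr4:86857349-86857378, minus strand: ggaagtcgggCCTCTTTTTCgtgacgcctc

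A run of at least 8 C or T lay within 50 bases of an annotated start in 52 of the 61 genes, which is 85.2%, against 39.3% of 27025 genes with an entry. The median longest run was 10 bases in the ribosomal protein genes and 7 over all genes. On the same strand a run of at least 8 A or G, the same letters read on the other strand, was found in 24.6% of the ribosomal protein genes and 41.1% of all genes, so the excess was of pyrimidines on the coding strand. CCGGAAG, the core letters bound by ETS factors, was found on either strand of the 300 bases in 25 of the 61 genes (41.0%) against 9.9% of all genes. These are matches of letters near annotated starts. No start site was measured in these libraries.

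Ribosomal protein mRNAs covered a wide range of levels. Their mean level over the 6 libraries ran from 0.237 to 836 CPM with a median of 87.6 CPM, against a median of 3.12 CPM over all genes tested, and 77 of the 81 were at 10 CPM or more. Between genes, levels were compared per kilobase (kb) of annotated exon. Rplp1, an acidic protein of the stalk that recruits translation factors, was highest at 834 CPM per kb with single libraries from 688 to 1180. Rpl41, the smallest ribosomal protein, followed at 548 CPM per kb (436 to 737) and Rps15, of the head of the small subunit, at 514 (400 to 642). Rpl8 at 469 and Rplp0 at 466 CPM per kb came next. From Rplp1 to Rplp0 the ranges over libraries of neighbors in this order overlapped.

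The lowest levels were those of Rpl3l and Rpl39l, at 0.281 and 0.285 CPM per kb, whose ranges overlapped. Rpl3l replaces Rpl3 in striated muscle and Rpl39l replaces Rpl39 in male germ cells. Rpl24 was at 1.34 CPM per kb (0.778 to 1.85) and Rpl35 at 4.09 (2.90 to 6.64), and these ranges overlapped neither each other nor those of the germ cell and muscle paralogs. Rpl24 and Rpl35 are ordinary members of the large subunit. Whether their low counts reflect their expression or the counting of reads was not tested. Exon models include rarely used exons, and reads can be shared with near-identical copies elsewhere, so the order per kb is uncertain for genes with many pseudogenes.

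**Figure D1:**
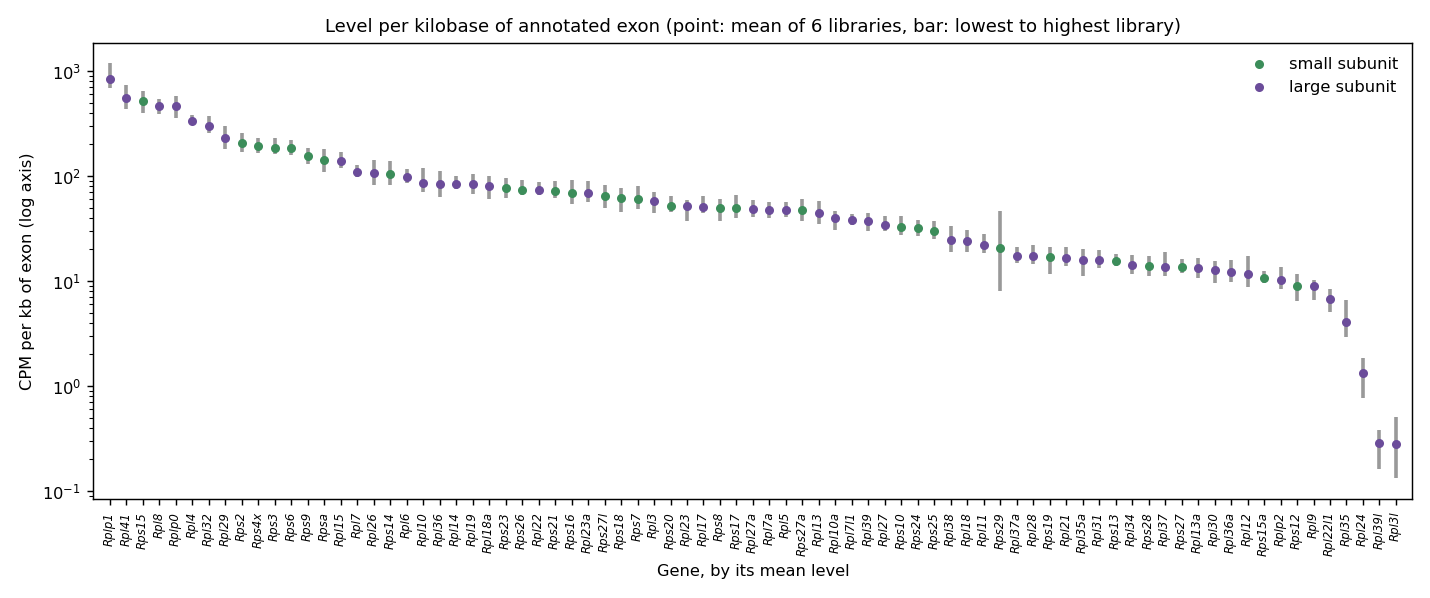
Mean level per kilobase of annotated exon over the 6 libraries for 79 of the 81 ribosomal protein genes (points, log axis), with bars from the lowest to the highest library, in order of level. Most genes lie between 10 and 834 CPM per kb, and Rpl24, Rpl39l and Rpl3l sit apart at the low end.

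Copies of these genes in the genome held more reads than the genes themselves. Copies named as pseudogenes, such as Rps6-ps4, were taken by name, and 232 of them were tested. The annotation types 221 as processed pseudogenes, which are reverse-transcribed copies without introns, and 5 as protein-coding, among them Rpl10-ps3 at a mean of 916 CPM. Their summed level was between 30900 and 42600 CPM per library, while the 81 genes summed to between 11200 and 16500 CPM. For 58 genes at least 1 pseudogene carried the gene's name, and for 40 of these the pseudogenes together exceeded the gene, with a median ratio of 4.46. The ratio was 102 for Rps12, 53.6 for Rpl31, 48.9 for Rpl9 and 17.6 for Rpl30, and it was 0.719 for Rpl7 and 0.114 for Rplp0. How reads that match several places were counted is not given in the sources used here, so a gene with a high ratio and its copies cannot be told apart by these counts. The pseudogenes had almost the same median log2 fold change as the genes, -0.21, before any correction for GC content and gene length. With that correction, their median deviations from their own means, in log2 CPM, were -0.11, 0.11 and 0.02 under the wildtype label. Under the mutant label they were -0.01, 0.01 and -0.04. Corrected in the same way, the 81 genes were at -0.19, 0.26 and 0.16 against -0.05, -0.10 and -0.09.

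Across the libraries the ribosomal protein genes moved as 1 block. They took 1.13%, 1.58% and 1.42% of all counts in wildtype replicates 1, 2 and 3 and 1.31%, 1.29% and 1.27% in mutant replicates 1, 2 and 3. The median deviation of the 81 genes from their own means, in log2 CPM, was -0.25, 0.33 and 0.20 in the wildtype-labelled libraries and -0.07, -0.14 and -0.10 in the mutant-labelled ones. The mutant-labelled libraries lay close together and between wildtype replicate 1, the lowest of all, and wildtype replicates 2 and 3, the highest.

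This order was shared by most single genes. Wildtype replicate 1 was below every mutant-labelled library for 58 of the 81 genes (71.6%, against 29.5% of all genes tested). Wildtype replicates 2 and 3 were both above every mutant-labelled library for 73 of the 81 (90.1%, against 20.7% of all genes). Wildtype replicate 2 was the highest of the 6 libraries for 64 genes and wildtype replicate 3 for 15. Where the mean level reached 1 CPM, the median standard deviation of log2 CPM between wildtype-labelled libraries was 0.320 for the 79 ribosomal protein genes and 0.173 for all 16655 genes. Between mutant-labelled libraries it was 0.0788 and 0.119. Once each library was set to the median of the ribosomal protein genes, their spread was 0.0982 in the wildtype and 0.0906 in the mutant group, so most of the spread in the wildtype group was a shift common to these genes.

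**Figure D2:**
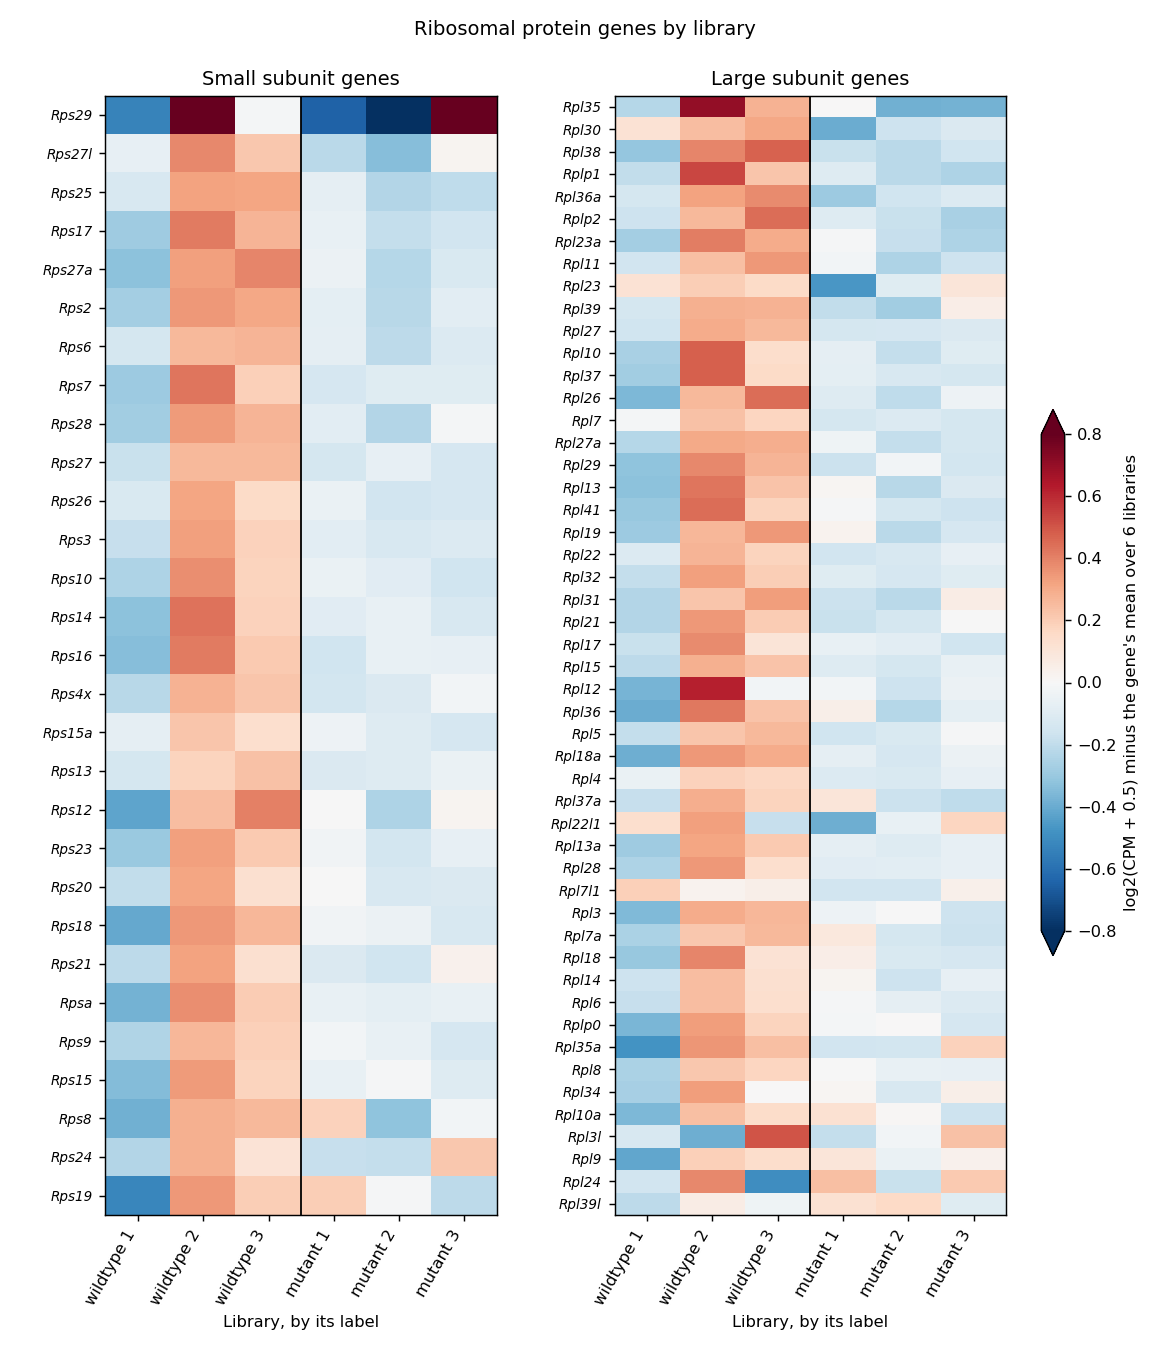
Deviation of log2(CPM + 0.5) from each gene's mean over the 6 libraries (color), with 1 row for each of 79 genes, small subunit on the left and large subunit on the right, and 1 column per library. Wildtype replicates 2 and 3 are above the mean (red) for nearly all genes, wildtype replicate 1 is below it (blue) for most, and the mutant-labelled libraries are near or slightly below it.

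With all 6 libraries the ribosomal protein genes were lower under the mutant label by a small and common amount, and none of them passed the test. The median log2 fold change was -0.22, against 0.01 over all 28157 genes tested. The value was negative for 78 of the 81 genes, against 48.8% of all genes, and it ran from -0.60 for Rpl35 to 0.39 for Rpl39l, with 61 genes within 0.1 of the median. A gene counts as called where its p, adjusted over all genes tested, does not exceed 0.05. By edgeR 0 of the 81 were called, against 0.0213% of all genes, which is 6 genes. limma-voom also called 0, and DESeq2 called 1 of the 81, Rpl30, against 1.81% of the genes with an adjusted p called lower. At an unadjusted p under 0.05, edgeR gave 13 of the 81, all lower, against 7.82% of all genes. In 5 genes, among them Rpl30, Rpl23, Rpl7 and Rpl4, every mutant-labelled library was below every wildtype-labelled one, which is a smaller share than the 8.95% of all genes that showed this.

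Small subunit genes had a median log2 fold change of -0.22, and all 31 were lower. An unadjusted p under 0.05 was found in 3 of the 31, against 7.82% of all genes that were lower at that p. Rps25, a protein of the head of the small subunit used by viral internal ribosome entry sites, was at 73.1, 100 and 99.2 CPM in the wildtype-labelled and 75.8, 67.7 and 69.2 CPM in the mutant-labelled libraries (log2 fold change -0.36 ± 0.13 (SE), adjusted p = 0.239, edgeR). Only wildtype replicate 1 fell within the range of the mutant label. Rps6, the substrate of the S6 kinases downstream of mTOR, was at 262, 346 and 349 CPM against 275, 250 and 268 CPM, and its groups overlapped through wildtype replicate 1 (-0.27 ± 0.12, adjusted p = 0.318, edgeR).

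Large subunit genes had a median of -0.22, and 47 of 50 were lower. An unadjusted p under 0.05 was found in 10 of the 50, all of them lower, against 7.82% of all genes. Rpl30 had the smallest p-value of all 81. It was at 41.2, 45 and 47.2 CPM in the wildtype-labelled and 28.7, 33.8 and 35.0 CPM in the mutant-labelled libraries (log2 fold change -0.45 ± 0.11 (SE), adjusted p = 0.181, edgeR). In DESeq2 its adjusted p was 0.0217. Rpl30, a small protein that also binds the element for selenocysteine insertion, thus had wildtype replicate 1 well above every mutant-labelled library. The groups did not overlap, and the exact two-sided permutation p was 0.1, the smallest that 3 libraries against 3 can give. With the counts of its 8 named pseudogenes added, the log2 fold change of Rpl30 was -0.23 and its adjusted p 0.342 (edgeR).

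Rpl23 and Rpl7 also had separate groups. Rpl23, on the face of the large subunit that meets the small one, was at 98.5, 104 and 101 CPM against 65.7, 84.8 and 97.2 CPM (-0.30 ± 0.13, adjusted p = 0.307, edgeR), and mutant replicate 3 nearly reached the wildtype level. Rpl7 was at 289, 344 and 330 CPM against 265, 271 and 265 CPM (-0.27 ± 0.10, adjusted p = 0.254, edgeR), with mutant-labelled libraries within a narrow band. Rpl36a was at 18.2, 25.2 and 26.3 CPM against 16.3, 17.9 and 18.6 CPM, and its groups met at wildtype replicate 1 (-0.40 ± 0.15, adjusted p = 0.244, edgeR). Rpl4 was at 651, 766 and 757 CPM against 625, 619 and 646 CPM, where wildtype replicate 1 was again next to the mutant-labelled libraries (-0.20 ± 0.11, adjusted p = 0.364, edgeR).

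The 3 genes of the stalk had a median of -0.39. Of these, 2 were lower at an unadjusted p under 0.05, against 7.82% of all genes. Rplp1 was at 356, 589 and 476 CPM in the wildtype-labelled and 380, 351 and 343 CPM in the mutant-labelled libraries (-0.40 ± 0.16, adjusted p = 0.267, edgeR). Its partner Rplp2 was at 18.4, 24.8 and 28.4 CPM against 19.2, 18.2 and 17.2 CPM (-0.39 ± 0.15, adjusted p = 0.264, edgeR). Rplp0, the stalk base that holds both, was at 593, 964 and 866 CPM against 756, 767 and 695 CPM, a log2 fold change of -0.13 ± 0.16. For all 3 the wildtype groups were widely spread, with replicate 1 lowest.

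**Figure D3:**
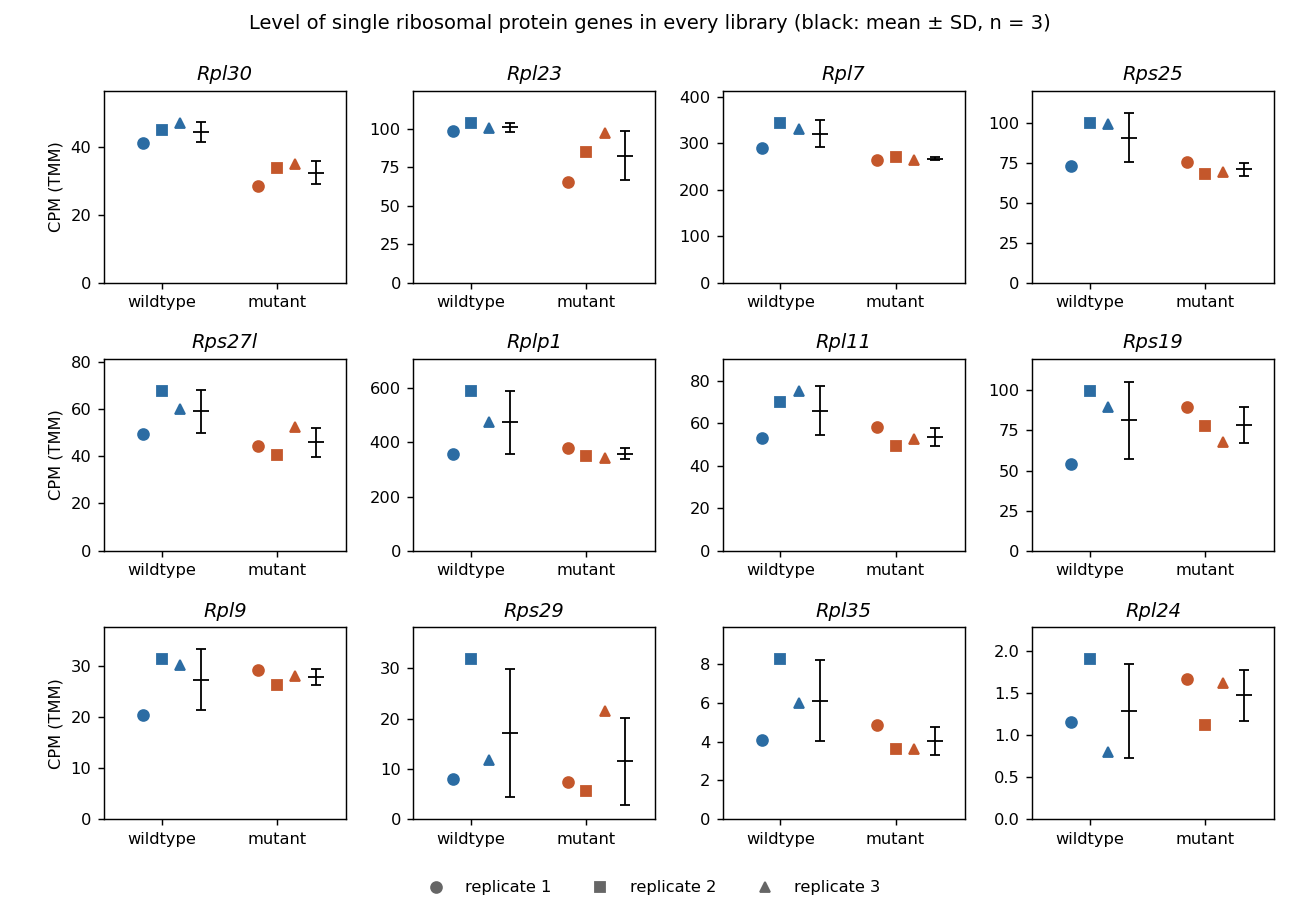
CPM in every library for 12 ribosomal protein genes, with wildtype-labelled libraries in blue, mutant-labelled ones in orange, 1 symbol per replicate number and the mean ± SD (n = 3) in black. The groups are separate for Rpl30, Rpl23 and Rpl7, and they overlap for the other 9 genes.

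The genes that were higher under the mutant label were Rpl24 and Rpl39l, which had few reads, and, by a very small amount, Rpl9. Rpl9 was at 20.4, 31.3 and 30.2 CPM against 29.3, 26.3 and 28.0 CPM, a log2 fold change of 0.03 ± 0.15 that was -0.22 with the counts of its 6 pseudogenes added and -0.14 without wildtype replicate 1. Rpl24, the gene mutated in Belly spot and tail mice, was at 1.15, 1.90 and 0.801 CPM against 1.67, 1.12 and 1.62 CPM (0.19 ± 0.35). Rpl39l rested on 6, 11 and 7 reads against 12, 12 and 7 reads (0.39 ± 0.58). None of these differences exceeded the spread between libraries.

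Paralogs named with a final l had a median of -0.18 over the 7 tested. Rps27l, a target of p53 and paralog of Rps27, was at 49.2, 67.5 and 60 CPM against 44.3, 40.7 and 52.5 CPM (-0.36 ± 0.14, adjusted p = 0.25, edgeR), and its partner Rps27 at 12.3, 16.8 and 16.8 against 12.6, 13.3 and 12.7 CPM (-0.25 ± 0.14). In Rpl7l1 and Rpl22l1 wildtype replicate 1 was not the lowest of its label. Rpl7l1 was at 152, 136 and 138 CPM against 120, 120 and 137 CPM (-0.18 ± 0.10), with wildtype replicate 1 the highest of all libraries, whereas in Rpl7 it was the lowest of its label. Rpl22l1 was at 14.6, 16.8 and 11.6 CPM against 10, 12.7 and 15 CPM (-0.19 ± 0.18), while Rpl22 was at 198, 258 and 241 CPM against 192, 195 and 204 CPM (-0.24 ± 0.11). The muscle paralog Rpl3l had 16, 9 and 27 reads against 13, 16 and 23 reads (-0.03 ± 0.55), and Rpl3 was at 141, 222 and 217 CPM against 175, 180 and 161 CPM (-0.16 ± 0.16). Rpl39 was at 47.5, 63.8 and 63.5 CPM against 45.6, 43.1 and 54.4 CPM (-0.29 ± 0.14). Rps4x was at 267, 377 and 363 CPM against 281, 287 and 306 CPM (-0.20 ± 0.13), and its pseudogene-typed relative Rps4l had a log2 fold change of -0.20 ± 0.13. With each of the 6 libraries corrected for GC content and gene length, Rps27l was at -0.16, Rps27 at -0.12, Rpl22l1 at -0.09, Rpl39 at -0.17 and Rps4x at -0.08. Rpl10l was not analysed here.

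The 19 genes known from Diamond-Blackfan anemia had a median log2 fold change of -0.24, and all were lower. An unadjusted p under 0.05 was found in 3 of the 19, against 7.82% of all genes that were lower at that p. Rps19, the gene most often mutated in that disease, was at 54.4, 99.5 and 89.8 CPM against 89.7, 77.8 and 67.6 CPM, with wildtype-labelled libraries both highest and lowest of all (-0.05 ± 0.20). It was -0.15 with the GC and length correction, and its sign changed with library size scaling, to 0.06. Rpl11 was at 52.9, 69.8 and 75.1 CPM against 58.0, 49.5 and 52.6 CPM (-0.30 ± 0.13, adjusted p = 0.296, edgeR). Its partner Rpl5 was at 161, 215 and 221 CPM against 165, 169 and 183 CPM (-0.21 ± 0.13, adjusted p = 0.442, edgeR). In both, wildtype replicates 2 and 3 were above all mutant-labelled libraries and wildtype replicate 1 was not.

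Of this list Rps29 and Rpl35 departed most from the common pattern. Rps29 was at 8.03, 31.8 and 11.7 CPM against 7.40, 5.60 and 21.5 CPM, so that 1 library of each label was well above the rest (-0.58 ± 0.54). Relative to the median of the ribosomal protein genes its standard deviation between libraries was 0.828 in the wildtype and 1.01 in the mutant group, on the log2 scale. Rpl35 was at 4.07, 8.24 and 6.01 CPM against 4.87, 3.60 and 3.63 CPM, the most negative value of the 81 (-0.60 ± 0.25, adjusted p = 0.289, edgeR). Relative to that median, Rpl35 was lower under the mutant label by 0.41, Rpl30 by 0.32 and Rpl38, which supports translation of Hox mRNAs, by 0.25.

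Without wildtype replicate 1 the outcome of the test was different. edgeR then called 51 of the 81 genes (63.0%), all of them lower under the mutant label, against 5.30% of all genes called lower. They were 22 of the small and 29 of the large subunit. Their log2 fold changes ran from -0.82 to -0.27, and the median of all 81 was -0.36. Only 2 libraries then stand for the wildtype label, and these are the ones in which the ribosomal protein genes were highest. The count describes these 5 libraries.

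Without wildtype replicate 1 the sizes differed among genes. The library left out was the lowest of its label for 77 of the 81 genes, and leaving out any other single library called 0 of them. The p-values below depend on that choice. Rpl38 fell by 0.64 ± 0.11 on the log2 scale (adjusted p = 0.0188, edgeR), Rps25 by 0.49 ± 0.08 (adjusted p = 0.0188) and Rps27a, made as a fusion with ubiquitin, by 0.49 ± 0.08 (adjusted p = 0.0188). Rps2 fell by 0.46, Rplp1 by 0.57, Rplp2 by 0.55, Rpl36a by 0.55 and Rpl35 by 0.82. Rpl30 fell by 0.50 ± 0.10 (adjusted p = 0.0254, edgeR). Rpl11 and Rpl5 fell by 0.44 and 0.34. Of the stalk 2 of 3 genes were called, and of the Diamond-Blackfan genes 11 of 19, beside the 63.0% of the 81 genes and the 5.30% of all genes given above. The 30 that were not called included Rplp0 (-0.31, adjusted p = 0.0520), Rpl23 (-0.31, adjusted p = 0.199), Rps19 (-0.27, adjusted p = 0.175) and Rps29 (-0.93, adjusted p = 0.315), all by edgeR.

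The count without wildtype replicate 1 depended on the scaling and on the correction for base composition and length. With DESeq2 it was 64 of 81, against 11.2% of all genes with an adjusted p that were called lower. With the counts of named pseudogenes added to the 58 genes that have any, it was 62, against 5.39% of all genes called lower. With a correction of each library for GC content and gene length it was 24, against 2.67% called lower. With library sizes as the only scaling it was 10, against 1.74% called lower. Every one of the ribosomal protein genes called in these fits was lower under the mutant label. Over all genes, those called in either direction numbered 3901, 2632, 1338 and 2512, in the same order of fits. Library size scaling moved the median of all genes to 0.16 in these 5 libraries and that of the ribosomal protein genes to -0.23. The ribosomal protein genes had a median exon length of 1781 bases and 51.8% GC, against 2707 bases and 49.1% over all genes tested.

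**Figure D4:**
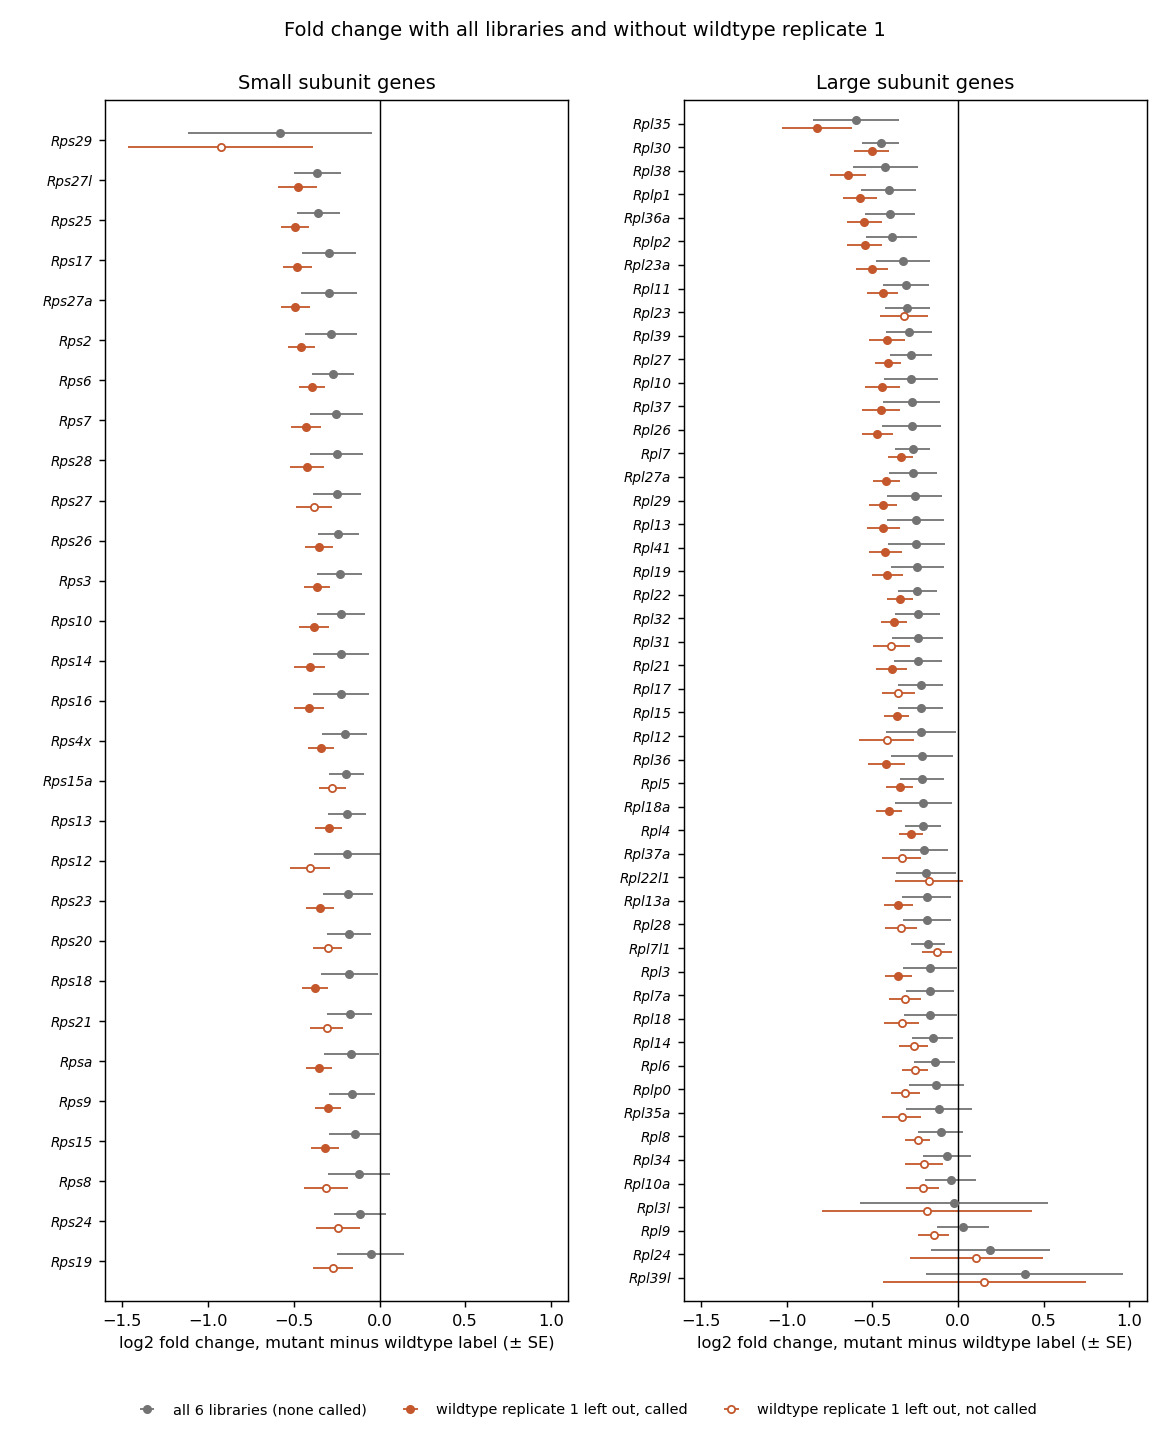
Log2 fold change (mutant minus wildtype label, ± SE) of 79 ribosomal protein genes with all 6 libraries (gray) and without wildtype replicate 1 (orange, filled where the adjusted p of edgeR is at most 0.05). With all libraries no gene is called, and without wildtype replicate 1 most values move to the left.

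Ribosomal proteins that the naming rule does not reach gave mixed values. Fau, whose product is cut into a ubiquitin-like part and a small subunit protein, was at 41.0, 59.5 and 59.2 CPM against 50.0, 46.6 and 46.5 CPM (-0.16 ± 0.14). Rack1, a scaffold on the small subunit, was at 747, 1080 and 1000 CPM against 916, 886 and 861 CPM (-0.09 ± 0.14, and 0.02 with library size scaling). Rps3a1 was at 218, 273 and 267 CPM against 226, 210 and 224 CPM (-0.20 ± 0.11, and -0.03 with the GC and length correction). In all 3 wildtype replicate 1 was the lowest of its label, as it was for 77 of the 81. Rpl36al was at 0.472, 0.530 and 0.585 CPM against 0.725, 0.827 and 0.637 CPM, with every mutant-labelled library above every wildtype-labelled one (0.46 ± 0.35, adjusted p = 0.543, edgeR).

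Lists of genes that work with the ribosome differed in how the libraries were ordered, and edgeR called 0 genes of these lists with all 6 libraries. The 77 mitochondrial ribosomal protein genes, which serve the separate ribosome of mitochondria, had a median log2 fold change of -0.29, 76 were lower and 47 had an unadjusted p under 0.05, all of them lower, against 7.82% of all genes. Their median deviations were -0.03, 0.20 and 0.28 under the wildtype label and -0.13, -0.23 and -0.05 under the mutant label, so that wildtype replicate 1 was less far below the other wildtype-labelled libraries than it was for the cytoplasmic genes. Without that library 32 of the 77 were called lower by edgeR, against 5.30% of all genes, and 0 were called higher.

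The 16 elongation factor and other non-ribosomal TOP mRNAs had a median of -0.16, with 15 lower and 2 at an unadjusted p under 0.05. Initiation factors had a median of -0.12 over 26 genes (4 at an unadjusted p under 0.05, all lower), ribosome biogenesis genes -0.06 over 35 (4, all lower) and regulators of ribosomal protein mRNAs such as Myc, Mtor and Larp1 -0.04 over 18 (3, all lower). The 12 genes of the p53 response had a median of -0.01, with 1 at an unadjusted p under 0.05 (lower). Over all genes tested, 7.82% were lower at that p. Among these lists the medians of the cytoplasmic and mitochondrial ribosomal protein genes were farthest from 0, and those of biogenesis factors, regulators and p53 targets were closest. For initiation factors and biogenesis genes wildtype replicate 1 (median deviations 0.01 and 0.03) was above every mutant-labelled library, as it was for the mitochondrial genes. For the regulators wildtype replicate 1 was the highest library (0.04) and wildtype replicate 2 the lowest (-0.05). No test of the difference between lists was made.

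**Figure D5:**
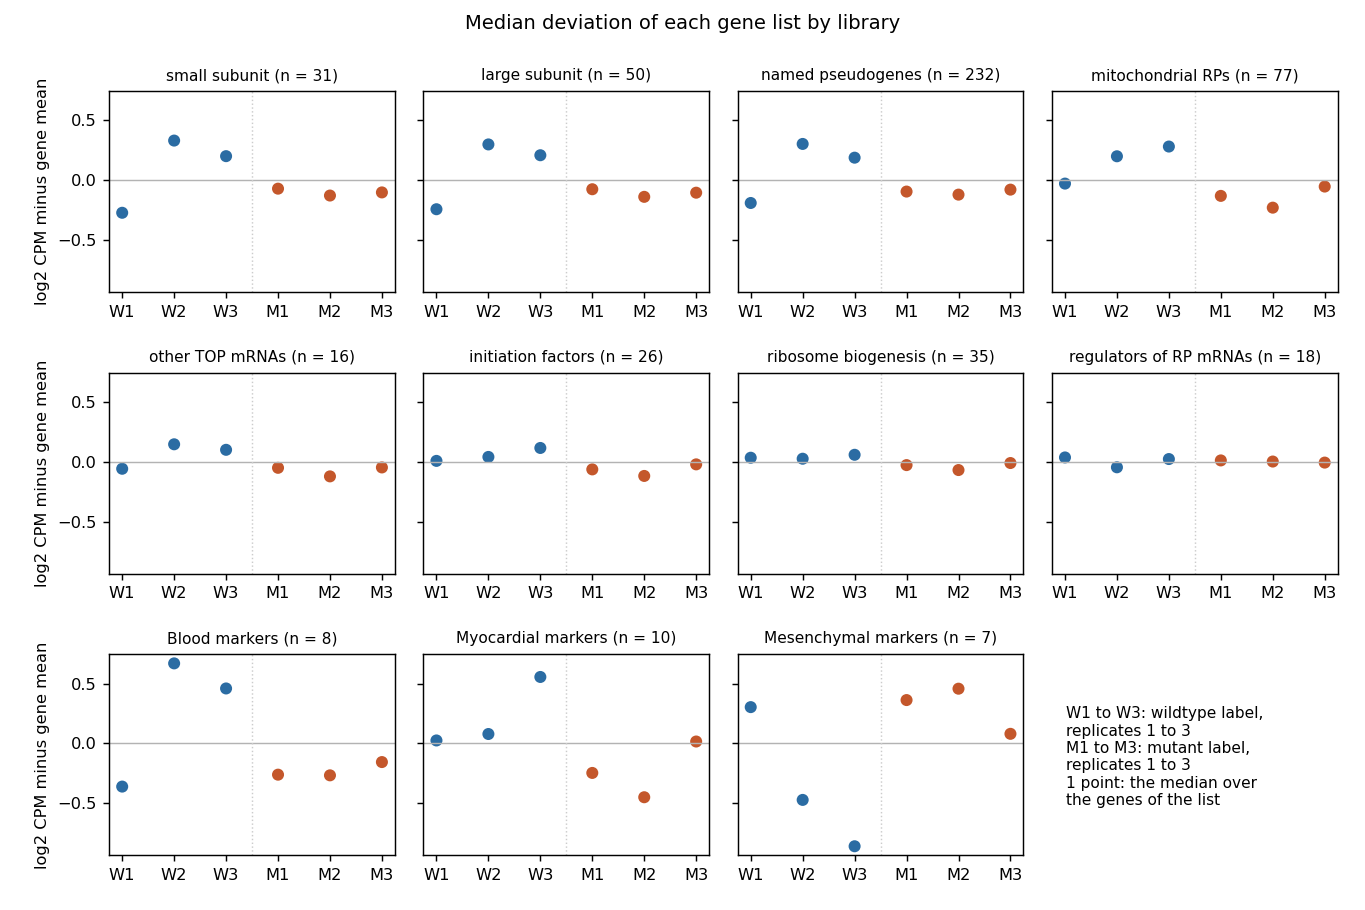
Median over the genes of each list of log2 CPM minus the gene's mean over the 6 libraries, with 1 point per library, wildtype label in blue and mutant label in orange, and the number of genes in each title. Both subunits, the pseudogenes and the blood markers share the same order, with wildtype replicates 2 and 3 high and wildtype replicate 1 low, while biogenesis factors and regulators stay near 0. Values are not corrected for GC content and gene length.

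Markers of several cell types differed between the same libraries. The 8 blood markers, globins and other genes of red cells such as Alas2, summed to 5390, 11900 and 10200 CPM under the wildtype label and to 6210, 6150 and 6310 CPM under the mutant label. All 8 were lower under the mutant label (median log2 fold change -0.56), 6 had an unadjusted p under 0.05 and none was called by edgeR. Wildtype replicate 1 was lowest and wildtype replicates 2 and 3 highest, as for the ribosomal protein genes. The 10 myocardial markers summed to 27200, 28600 and 37800 CPM against 22600, 19100 and 26700 CPM, and all 10 were lower (median -0.51, 7 at an unadjusted p under 0.05). The 7 mesenchymal markers summed to 7950, 5370 and 4070 CPM against 8660, 9450 and 7370 CPM, and all 7 were higher (median 0.59, 5 at an unadjusted p under 0.05). At that p, 7.82% of the 28157 genes tested were lower and 2319 genes were higher. No marker of these lists was at 0 reads in any library, and 0 were called with all 6 libraries. Without wildtype replicate 1, edgeR called 7 of the 8 blood markers (median -0.82) and 4 of the 10 myocardial ones (median -0.58) lower, against 5.30% of all genes. All 7 mesenchymal markers were then called higher (median 0.94), against 4.15% of all genes. Whether the make-up of the pools had a part in the values of the ribosomal protein genes was not tested.

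The ribosomal protein genes are spread over 19 chromosomes, with 14 of them on chromosome 7 and 4 on X. On mm10 2 genes lie within 10 Mb of Notch1 and 0 within 10 Mb of Nos3. Rpl7a (chr2:26910764-26913318) is 0.394 Mb from Notch1 and was at 70.6, 97.8 and 101 CPM against 89.3, 76.5 and 74.8 CPM (-0.16 ± 0.14, and -0.09 with the GC and length correction). Rpl12 (chr2:32961559-32965345), at the base of the stalk, is 6.44 Mb away and was at 31.4, 63.0 and 40.1 CPM against 40.1, 36.3 and 39.5 CPM (-0.22 ± 0.20). Both had overlapping groups. Many ribosomal protein genes carry small nucleolar RNAs, guides for the modification of ribosomal RNA, in their introns. Of the 81 genes 29 did, with 56 such RNA genes among them, which is 35.8% against 1.51% of the 17138 protein-coding genes tested. The median log2 fold change was -0.22 for these hosts and -0.21 for the other ribosomal protein genes.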

How the data were processed

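RNA from 18 E13.5 OFTs, pooled by 3 into 6 libraries, was depleted of ribosomal RNA, made into stranded libraries and sequenced as paired reads. The authors aligned reads to mm10 with TopHat2 2.1.0 (Bowtie2) and used GenomicAlignments to count those that fell on exons. The deposited values are these raw counts, 1 whole number per gene and library, not normalized. Annotation release, strand setting and the handling of multiply mapped reads are not given in the sources used here.

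Genes with 5 or fewer reads in all (620) were left out, as in the study's methods. The other 28157 were scaled by TMM and tested with edgeR 4.0.16 (R 4.3.3), a quasi-likelihood test with Benjamini-Hochberg adjustment over all of them and no covariate. Genes whose adjusted p did not exceed 0.05 were called. edgeR estimated 6.67 prior degrees of freedom and a biological coefficient of variation of 0.17. Alternatives used DESeq2 1.42.0, limma 3.58.1 (voom), other scalings and filters, a GC and length correction, replicate blocks, added pseudogene counts and left-out libraries. Single genes were compared by an exact permutation test on log2 of CPM plus 0.5. On simulated counts with 200 of 28157 genes changed by 1 on the log2 scale, edgeR recovered 174 with 15 false calls. With a simulated effect of the replicate number and less other variation, it recovered 0 without a block and 198 with a block. That effect was not matched to these libraries, so it does not show what a block gains in them. Changes as small as the median of the ribosomal protein genes were not simulated. Symbols, gene types, positions and exon lengths came from GENCODE annotation of mm10, which held 28723 of the 28777 identifiers and lacked 54. Promoter windows were from RefSeq.

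The members and all lists were chosen with earlier results of these data known. Named genes are the lowest p-values in each direction, paralog pairs, the highest and lowest levels per kb, Rpl5, Rpl11, Rps19, Rps6, neighbors of Notch1 or Nos3, and ribosomal proteins outside the naming rule. Rpl23, Rpl4, Rplp0, Rps29, Rpl35, Rpl38, Rps27a, Rps2 and Rpl8 were added after their values were seen. Values of a few single genes are not reported here. Whether same-numbered libraries deviate together was checked (correlations 0.096, 0.159 and 0.42 over 16655 genes), and the numbers were not treated as pairs. Labels call the libraries separate pools, and p-values measure the spread between pools.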

Additional observations from a re-analysis of the deposited data

How the results depend on the processing

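The median log2 fold change of the ribosomal protein genes was negative under each of the 19 planned and 4 added settings, the added ones chosen after seeing the data, and ran from -0.36 without wildtype replicate 1 to -0.10 without wildtype replicate 2. It was -0.11 with library size scaling, where the median of all genes moved to 0.11. Leaving out 1 library gave 0 to 51 ribosomal protein genes called and 1 to 2593 of all genes, and both upper values were without wildtype replicate 1. With that library left out, 64 of the 81 and 3901 of all genes were called by DESeq2, 62 and 2632 with pseudogene counts added, 24 and 1338 with the GC and length correction, and 10 and 2512 with library size scaling. With all libraries DESeq2 called 1 and 742, and an adjusted p of at most 0.01 left 2 of all genes.

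The labels do not say that same-numbered libraries form pairs. Wildtype replicate 1 correlated best with mutant replicate 2 (0.277), wildtype replicate 2 with mutant replicate 2 (0.159) and wildtype replicate 3 with mutant replicate 3 (0.42). Whether same-numbered libraries shared a step of processing was not tested. A replicate block on the titles called 1 of the 81 (Rpl30, adjusted p = 0.0134, edgeR) and 1577 of all genes, a block on the descriptions 0 and 78, and the block on the titles with GC and length correction 3 (Rpl30, Rplp1 and Rps2) and 2434.

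Over 33 named genes, 539 of 593 values kept their direction and side of the threshold, 28 passed it, 6 no longer did and 20 changed sign. The 6 were all of Notch1, with the GC and length correction (adjusted p = 0.0562, edgeR) and without any library but wildtype replicate 1. Nos3 was called under both blocks (adjusted p = 0.00027 by titles and 0.0126 by descriptions, edgeR). Rpl3l, which rests on few reads, was positive with library size scaling (0.0852), voom (0.18), the blocks (0.0755 by titles, 0.0808 by descriptions and 0.0820 with GC correction) and, leaving out single libraries, between -0.37 and 0.64. Over left-out libraries Rpl24 ran from -0.0492 to 0.58, Rpl9 from -0.14 to 0.14, Rps15 from -0.32 to 0.0015, Rps19 from -0.27 to 0.12, Rpl12 from -0.42 to 0.11 and Rack1 from -0.23 to 0.020. For Rps15, Rps19, Rpl12 and Rack1 the lowest value was without wildtype replicate 1 and the highest without wildtype replicate 2. Rpl9 was at -0.22 with pseudogene counts added. With library size scaling Rps19 was at 0.0618 and Rack1 at 0.0195. The cause was not tested. Where counts were few, as in Rpl3l and Rpl39l, differences of this size were not detectable at this depth.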

Other observations

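The other marker lists gave smaller or mixed values. The 7 endothelial markers summed to 900, 1160 and 1250 CPM under the wildtype label and 963, 942 and 1070 CPM under the mutant label (median log2 fold change -0.14), with wildtype replicate 1 lowest. The 6 smooth muscle markers summed to 4120, 3770 and 2940 CPM against 5000, 5850 and 3220 CPM (0.15). The 4 epicardial markers summed to 148, 245 and 172 CPM against 170, 207 and 151 CPM (-0.08), the 5 neuronal ones to 25, 21.3 and 11 against 31.3, 33.5 and 24.2 CPM (0.12) and the 6 macrophage ones to 66.9, 109 and 80.8 against 77.0, 93.2 and 87.8 CPM (0.08). All 7 endothelial markers were lower, and no gene of these lists was called by edgeR with all 6 libraries. Without wildtype replicate 1, edgeR called 2 of the 7 endothelial markers lower, against 5.30% of all genes. It called 1 of the 6 smooth muscle and 1 of the 5 neuronal markers higher, against 4.15% of all genes, and 0 epicardial or macrophage ones. Macrophage and epicardial markers were highest in wildtype replicate 2, where most ribosomal protein genes were highest too. Their part in those values was not tested.

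The pseudogene-typed genes that carry plain symbols were also lower under the mutant label, with wildtype replicate 1 the lowest of its label. In Rpl32l, however, that library was above every mutant-labelled one. Rpl6l was at 276, 385 and 359 CPM against 318, 311 and 310 CPM (-0.12 ± 0.13). Rpl32l was at 174, 229 and 211 CPM against 168, 158 and 168 CPM, with separate groups (-0.31 ± 0.11, adjusted p = 0.243, edgeR), and Rps4l was at 66.5, 88.0 and 93.9 CPM against 78.5, 71.2 and 67.1 CPM. Without wildtype replicate 1, Rpl32l fell by 0.42 ± 0.08 (adjusted p = 0.0213, edgeR), while Rpl6l (-0.25, adjusted p = 0.0659) and Rps4l (-0.33, adjusted p = 0.0510) were not called by edgeR.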
